A study of Mus musculus with 36 samples.

Results

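The genes described here encode the proteasome: every gene of the mRNA table whose symbol begins with Psm, a letter from a to g and a number, which is 50 of 16415 listed genes. They were followed in the left ventricle of male C57BL/6 mice after myocardial infarction (MI), produced by tying the left anterior descending coronary artery, or after a sham operation. The mice were 8 weeks old at surgery, so those of a later stage were older when the tissue was taken. RNA was sequenced at the early (1 day), middle (1 week) and late (8 weeks) stage after surgery. The 6 groups are therefore sham and MI at each stage, with no transgene or drug treatment named for any of them, and with 3 mRNA libraries per group and 18 in all. Per the labels the RNA came from left ventricles that were pooled. They do not tell whether the 3 libraries of a group stand for 3 animals, and the p-values given cover no more than the spread from library to library, which may be technical. The 18 small RNA libraries of the series are not used here.

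The proteasome degrades proteins tagged with ubiquitin. Its 20S core is a barrel of 2 outer alpha rings and 2 inner beta rings, and the active sites sit on the beta subunits β1, β2 and β5, encoded by Psmb6, Psmb7 and Psmb5. Interferons induce alternative catalytic subunits, β1i (Psmb9), β2i (Psmb10) and β5i (Psmb8), which take the places of the constitutive ones in newly built cores; this immunoproteasome favours peptides that fit MHC class I molecules. A cap opens the core: the 19S particle, which binds and unfolds ubiquitinated proteins, the interferon-induced PA28 ring of Psme1 and Psme2, the nuclear PA28γ (Psme3) or PA200 (Psme4). Cardiomyocytes rely on the constitutive form, while leukocytes hold much of the immunoproteasome of most tissues.

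Values are FPKM, read counts divided by transcript length and by library size, so levels can be set side by side between genes per unit of length. Fold changes are on the log2(FPKM + 1) scale, which understates the change of genes with low FPKM, and were tested with limma and a Benjamini-Hochberg adjustment over the 12858 genes that reached 1 FPKM in 3 or more libraries. "Called" means an adjusted p below 0.05. The fit pools the variance of each gene over all 6 groups, so the SE of its fold change is shared by the stages. This SE does not measure the spread within a single stage. For genes whose MI libraries of the late stage spread more than the other groups, late SE and p-values can be too small. Fitting each stage alone ended some late calls, which are listed in the last section. 48 of the 50 proteasome genes passed this filter. The thymus subunit Psmb11 did not exceed 0.0158 FPKM, and Psma8, an alpha subunit of the testis, lay between 0.134 and 0.652 FPKM. Of the 48, Psmc3ip matches by name only: it encodes a partner of meiotic recombinases and no proteasome subunit.

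The tissue changed around these genes. All 12 cardiomyocyte markers fell at 1 day and 1 week and 8 of 12 at 8 weeks, and their summed level was 40254 to 48703 FPKM in the 9 sham libraries against 14697 to 18114, 2921 to 9241 and 16323 to 38871 FPKM with MI at the 3 stages. The 10 leukocyte markers rose at each stage, from a sum of 45.6 to 94.8 FPKM in sham libraries to 883 to 1622, 1076 to 1219 and 291 to 640 FPKM. The 8 fibroblast markers summed to 229 to 450 FPKM in sham libraries and to 300 to 334, 13377 to 16280 and 1313 to 4675 FPKM with MI, with 2, 8 and 8 of them rising. None of the 22 cardiomyocyte and leukocyte markers was at 0 in any library. Of 8 neutrophil markers 8, 7 and 6 rose, their sum being 6.59 to 39.0 FPKM in sham libraries and 6228 to 10156 FPKM at 1 day of MI, and of 10 macrophage markers 6, 10 and 10 rose. Beside these marker counts, 39.7, 72.8 and 70.4 percent of all tested genes were called higher at the 3 stages. The shares called lower were 30.6, 16.5 and 10.6 percent. At 8 weeks the MI libraries differed from each other most, and replicates 2 and 3 also held adipocyte markers at a sum of 313.8 and 1373 FPKM against 1.89 in replicate 1. In bulk tissue fewer cells of a type and less RNA per cell cannot be told apart. The median fold change of all tested genes was 0.09, 0.79 and 0.52 at the 3 stages, so each change is also given relative to that shift, and the calls were repeated under 3 other scalings: quantile normalization, median-ratio factors and the authors' normalized log2 values.

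The fold changes of the proteasome genes lay close together, around a centre that moved with the scaling. On FPKM as deposited, at 1 day the middle 50 percent of their fold changes lay between -0.14 and 0.29, at 1 week between 0.03 and 0.50, and at 8 weeks between 0.21 and 0.55, an interquartile range of 0.43, 0.47 and 0.35 against 1.07, 1.20 and 0.76 for all tested genes. On this scale 3, 4 and 2 of the 48 changed by more than 1 log2 unit, which is 6.25, 8.33 and 4.17 percent beside 24.9, 47.3 and 23.5 percent of all tested genes. With median-ratio factors the interquartile range of members was 0.43, 0.53 and 0.43 around medians of -0.12, -0.67 and -0.30 (all genes 1.09, 1.24 and 0.85 around 0.00, 0.04 and -0.01), and 9 members, 18.8 percent against 32.2 percent of all genes, passed 1 log2 unit at 1 week, each of them downward. After quantile normalization it was 0.38, 0.44 and 0.31 around -0.16, -0.34 and -0.15 (all genes 1.04, 1.22 and 0.78), with 1 member above 1 and 2 below -1 at 1 week. At 1 day 15 members were called higher and 11 lower, with backgrounds of 39.7 and 30.6 percent of all genes. At 1 week 29 were higher and 4 lower (backgrounds 72.8 and 16.5 percent), and at 8 weeks 38 and 1 (70.4 and 10.6 percent). This direction turned with the scaling: quantile normalization gave, stage by stage, 8 higher and 21 lower (backgrounds 34.2 and 42.0 percent), 5 and 34 (41.3 and 39.7), and 7 and 19 (30.9 and 39.8). Median-ratio factors gave 10 and 16 (39.0 and 37.9 percent), 3 and 41 (41.7 and 39.6), and 2 and 28 (35.6 and 37.1). The authors' normalized values gave 8 and 21 (34.1 and 41.9 percent), 5 and 34 (41.2 and 39.6), and 7 and 20 (30.8 and 39.8). The summed FPKM of all 50 made up 0.630 to 0.658 percent of all FPKM in sham and 0.655 to 0.677 percent in MI libraries at 1 day, 0.591 to 0.607 and 0.545 to 0.567 percent at 1 week, and 0.571 to 0.581 and 0.560 to 0.609 percent at 8 weeks.

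**Figure D1:**
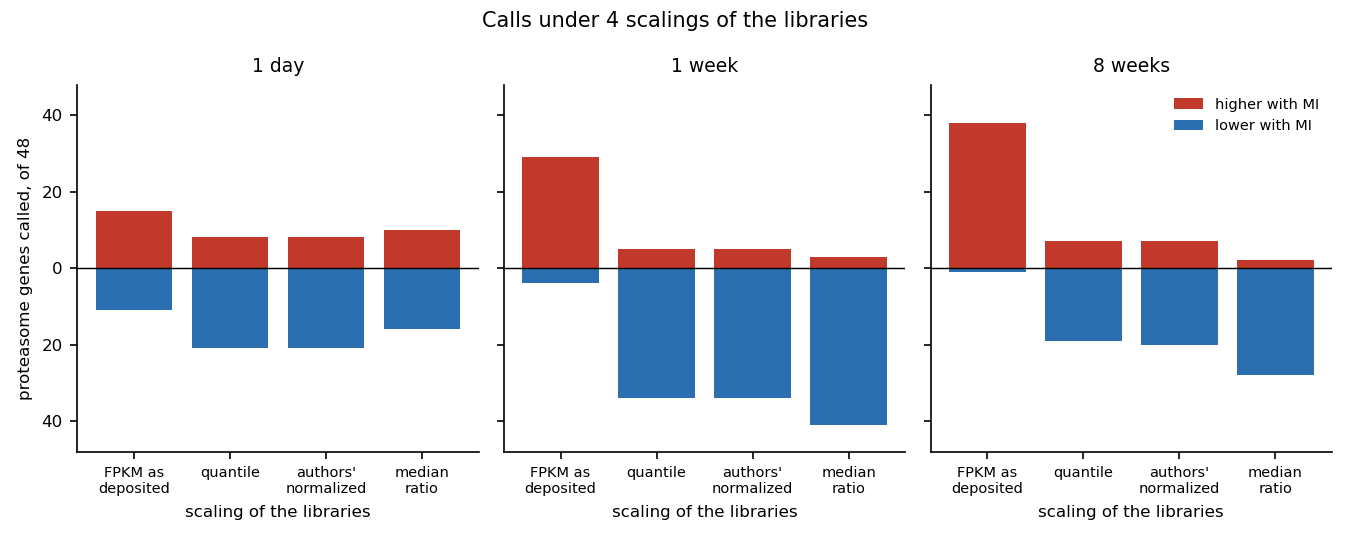
Number of proteasome genes, of 48 tested, called higher (red, upward) or lower (blue, downward) with MI, on the vertical axis, under 4 scalings of the libraries at each stage. With FPKM as deposited 29 were higher and 4 lower at 1 week, and with median-ratio factors 3 and 41.

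Calls that were the same under all 4 scalings named a short list. The authors' normalized values gave nearly the same fold changes as quantile normalization, so the 4 scalings are not 4 separate checks. At 1 day 8 members were higher (Psmb8, Psmd11, Psme3, Psma3, Psmd14, Psma5, Psmd8 and Psme2; 16.7 percent of 48, background 33.7 percent) and 11 lower (Psme4, Psmg2, Psmg1, Psmc3, Psmb7, Psme1, Psmd9, Psmb6, Psmf1, Psmb10 and Psma1; 22.9 percent, background 30.5). At 1 week 3 were higher (Psmb8, Psme2b and Psmb9; background 37.7 percent) and 4 lower (Psme4, Psmb7, Psmd12 and Psmg2; background 16.5). At 8 weeks Psmb9 and Psmb8 were higher (background 27.9 percent) and Psme4 lower (background 10.5). Psmb8 was the only member higher and Psme4 the only one lower at all 3 stages in this sense. Of the lower calls at 1 day, that of Psma1 was lost without sham replicate 1 (adjusted p = 0.15) or 2 (0.062) or MI replicate 1 (0.180), and that of Psmb10 without sham replicate 1 (0.0567) or 3 (0.0595) or MI replicate 1 (0.0791). That of Psmd9 was lost without MI replicate 1 (0.0601) or 2 (0.0504), and that of Psmf1 without any library of 1 day (0.0688 to 0.103) and most of the others.

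**Figure D2:**
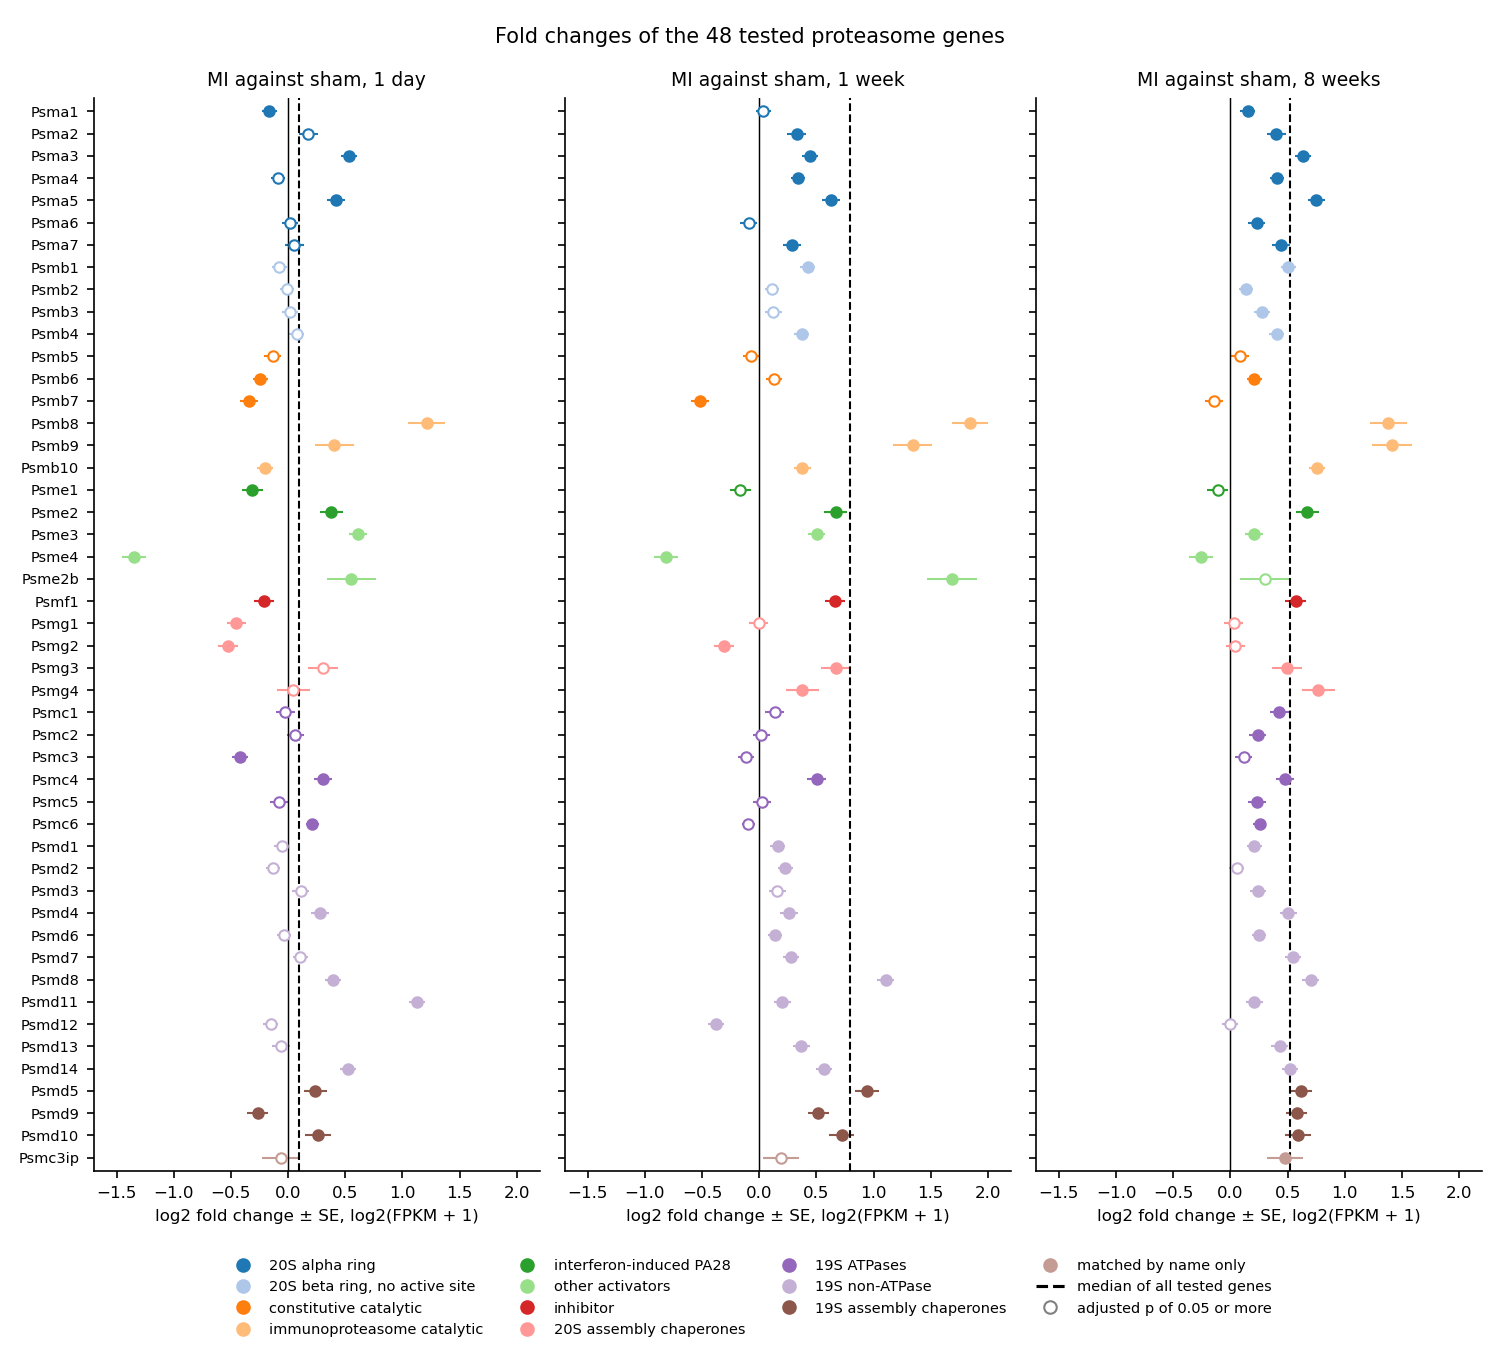
Log2 fold change (MI against sham, log2(FPKM + 1) scale) ± SE of each of the 48 tested proteasome genes at the 3 stages, coloured by subunit group; filled points were called and open points were not. The dashed line is the median of all tested genes (0.09, 0.79 and 0.52), and most members sit between 0 and that line at 1 week while Psmb8, at 1.84, lies beyond it.

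The catalytic subunits went different ways. Psmb8 encodes β5i, which replaces β5 and carries the chymotrypsin-like activity of the immunoproteasome. It measured 7.33, 8.71 and 8.77 FPKM in the sham and 17.0, 23.1 and 21.6 FPKM in the MI libraries at 1 day, 9.58, 6.58 and 9.05 against 33.2, 32.8 and 31.1 FPKM at 1 week, and 7.001, 8.27 and 7.58 against 16.5, 21.9 and 27.1 FPKM at 8 weeks. Every MI library lay above every sham library of the series. The log2 fold changes were 1.21 ± 0.159, 1.84 ± 0.159 and 1.38 ± 0.159 (SE pooled over all groups, n = 3 per group; adjusted p = 4.7e-06, 2.39e-08 and 1.7e-06, limma), or 1.12, 1.05 and 0.86 relative to the median of all genes.

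Psmb9 encodes β1i. At 1 day its level was 5.05, 5.58 and 6.05 FPKM in sham and 7.003, 8.06 and 8.01 FPKM in MI libraries. At 1 week it was 6.47, 5.44 and 5.81 against 17.1, 16.4 and 15.9 FPKM, and at 8 weeks 5.53, 5.27 and 4.09 against 9.71, 17.1 and 19.3 FPKM. Every MI library lay above every sham library of its stage. The log2 fold change was 0.41 ± 0.173 at 1 day, where the adjusted p of 0.0468 (limma) was lost under quantile normalization (0.254) and without any library of 1 day but MI replicate 1 (0.0529 to 0.136) or any library of 1 week (0.0532 to 0.0566), but 1.34 ± 0.173 at 1 week and 1.41 ± 0.173 at 8 weeks (adjusted p = 2.02e-06 and 3.16e-06). The effect at 1 week exceeded that at 1 day by 0.94 ± 0.245 (adjusted p = 0.00305), a call that was not kept in all 4 scalings.

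Psmb10 encodes β2i and, unlike Psmb8 and Psmb9, was called lower at 1 day. That call was lost without some single libraries, as given above. The 3 sham libraries of 1 day held 15.8, 15.1 and 15.9 FPKM and the MI libraries 12.7, 14.1 and 13.6 FPKM, so that all MI values were below all sham values (log2 fold change -0.20 ± 0.0721, adjusted p = 0.0196, limma). At 1 week the values were 17.5, 16.3 and 17.6 against 21.2, 21.9 and 24.7 FPKM (0.38), and at 8 weeks 17.2, 17.3 and 17.4 against 32.3, 28.6 and 29.1 FPKM (0.76 ± 0.0721, adjusted p = 2.61e-07). The rise at 1 week became -0.30 (quantile) and -0.54 (median-ratio) on other scalings, and that at 8 weeks stayed positive at 0.26 and 0.07 but was not called with the latter. The gain from 1 week to 8 weeks, 0.38 ± 0.102 (adjusted p = 0.00735), was called in all 4 scalings.

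The constitutive partners did not share the rise of Psmb8 and Psmb9 at each stage. Psmb6, like Psmb10, was called lower at 1 day and higher at 8 weeks on FPKM as deposited. Psmb5 (β5) measured 79.9, 75.3 and 72.8 FPKM in sham against 63.6, 72.0 and 72.0 in MI libraries at 1 day, 71.8, 64.4 and 72.7 against 69.8, 65.7 and 63.5 at 1 week, and 65.2, 67.0 and 67.1 against 75.4, 70.2 and 65.5 at 8 weeks. The groups overlapped at 1 week and 8 weeks and no stage was called, with adjusted p of 0.129, 0.403 and 0.341 (limma), while quantile normalization and median-ratio factors called it lower at each stage, by -0.30 to -0.62 and -0.27 to -1.02. Psmb6 (β1) had 69.1, 67.5 and 66.8 FPKM in sham and 53.4, 58.5 and 59.5 in MI libraries at 1 day, 61.1, 60.5 and 62.9 against 67.4, 68.1 and 66.4 at 1 week, and 60.8, 62.5 and 62.7 against 78.6, 68.3 and 68.7 at 8 weeks. It fell at 1 day (-0.24 ± 0.0668, adjusted p = 0.00394), and its called rise at 8 weeks (0.21, adjusted p = 0.00978) became -0.22 (quantile) and -0.50 (median-ratio) on other scalings.

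Psmb7 (β2), which has the highest FPKM among the catalytic subunits, fell at 2 stages. Its values were 132, 130 and 126 FPKM against 99.0, 99.7 and 108 at 1 day and 122, 121 and 124 against 83.9, 83.8 and 87.9 at 1 week. No MI library reached the sham range at either stage, and the log2 fold changes of -0.34 ± 0.0794 and -0.52 ± 0.0794 (adjusted p = 0.00125 and 1.36e-05, limma) were called in all 4 scalings. At 8 weeks it was 111, 121 and 116 against 117, 106 and 92.6 FPKM, which overlap. The difference between 8 weeks and 1 week, 0.38 ± 0.112 (adjusted p = 0.0134), was called in all 4 scalings.

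**Figure D3:**
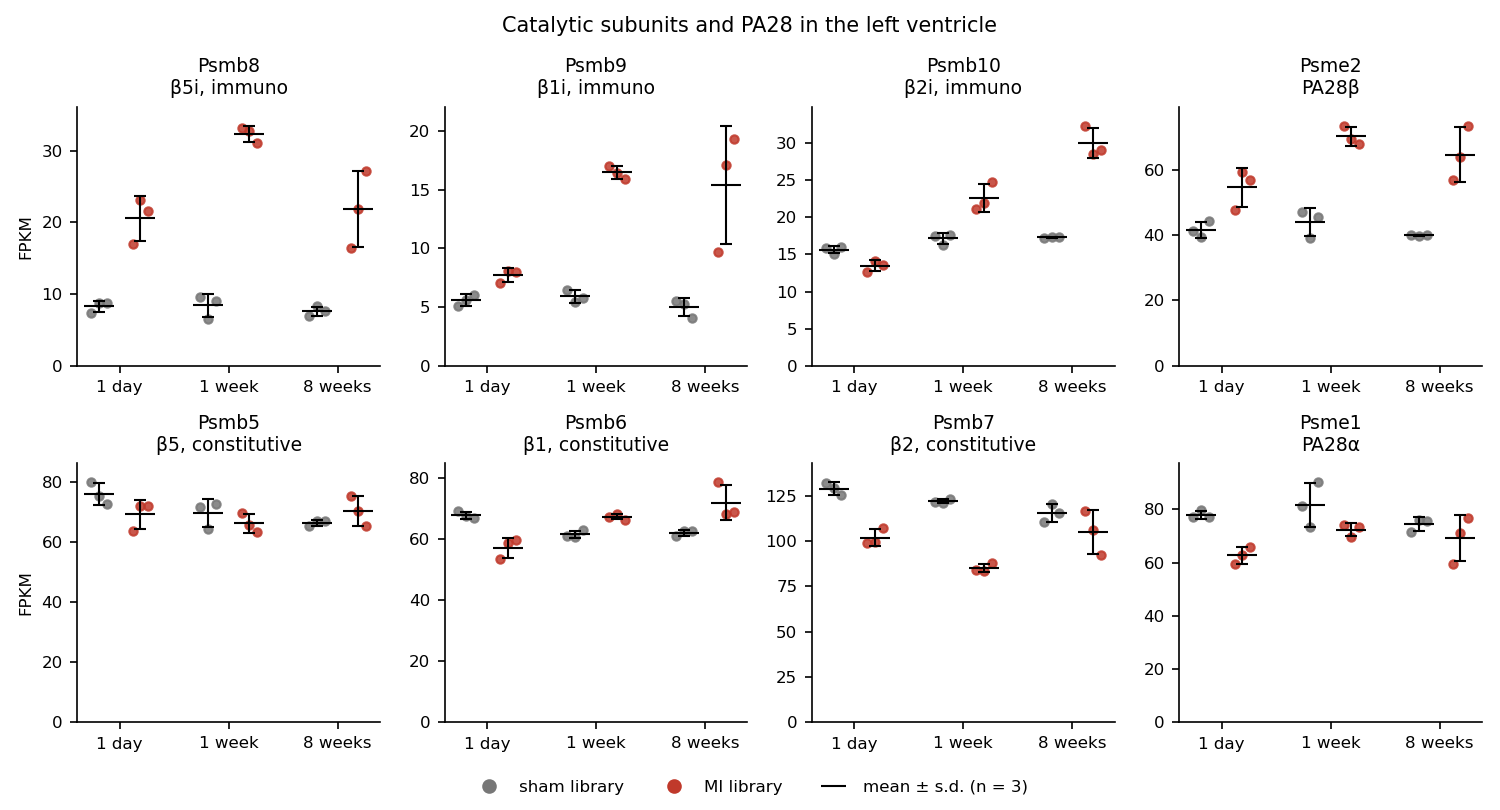
FPKM of the 3 immunoproteasome subunits and Psme2 (upper row) and of the 3 constitutive partners and Psme1 (lower row) in each library; points are libraries, grey for sham and red for MI, and bars are mean ± s.d. (n = 3). Psmb8 lies at 16.5 FPKM or more in all MI libraries and below 10 in all sham libraries, while Psmb5 lies between 63.5 and 79.9 FPKM in all 18.

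Dividing each immunoproteasome gene by its partner within a library gives a value that no single scaling factor per library can move. The ratio Psmb8/Psmb5 was 0.109 ± 0.0153, 0.120 ± 0.0161 and 0.115 ± 0.00814 in sham libraries (mean ± s.d., n = 3) and 0.296 ± 0.0269, 0.488 ± 0.0119 and 0.315 ± 0.0980 with MI, from the early to the late stage. As a ratio of geometric means this was 2.72, 4.09 and 2.66 times the sham value. Psmb9/Psmb6 was 0.0821 ± 0.00876, 0.0961 ± 0.00872 and 0.0802 ± 0.0134 in sham and 0.135 ± 0.00324, 0.245 ± 0.00726 and 0.218 ± 0.0834 in MI libraries, in the same order. Psmb10/Psmb7 was 0.121 ± 0.00534 against 0.132 ± 0.00855 at 1 day, where the libraries overlapped, and then 0.140 ± 0.00512 against 0.265 ± 0.0151 and 0.1496 ± 0.00618 against 0.286 ± 0.0246.

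All MI ratios lay above all sham ratios of the same stage except for Psmb10/Psmb7 at 1 day. The exact two-sided permutation test gave p = 0.1, the smallest that 3 against 3 libraries allow, for 8 of these 9 relations and p = 0.2 for the exception (adjusted over 18 ratios tested, 0.113 and 0.212), so no ratio could pass 0.05. At 8 weeks the 3 MI libraries were far apart: Psmb8/Psmb5 was 0.219, 0.311 and 0.414 and Psmb9/Psmb6 0.124, 0.250 and 0.281 in replicates 1, 2 and 3, whose cardiomyocyte markers summed to 38871, 26660 and 16323 FPKM and leukocyte markers to 291, 372 and 640 FPKM. Psmb10/Psmb7 was closer together at 0.276, 0.268 and 0.314. How far cell types entered these ratios was not tested.

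The mean log2(FPKM + 1) of the 5 immunoproteasome genes (the 3 catalytic subunits with Psme1 and Psme2) minus that of the 3 constitutive ones was -2.13 ± 0.0986, -1.94 ± 0.0952 and -2.01 ± 0.0417 in sham libraries at the 3 stages and -1.59 ± 0.0602, -0.98 ± 0.0126 and -1.24 ± 0.343 with MI (mean ± s.d., n = 3). The gap narrowed by 0.54, 0.96 and 0.77 log2 units at the 3 stages. At 1 week the mean of the constitutive set was still above that of the immunoproteasome set in each library, while Psme1 and Psme2 alone exceeded Psmb5 and Psmb6 in FPKM in each MI library.

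**Figure D4:**
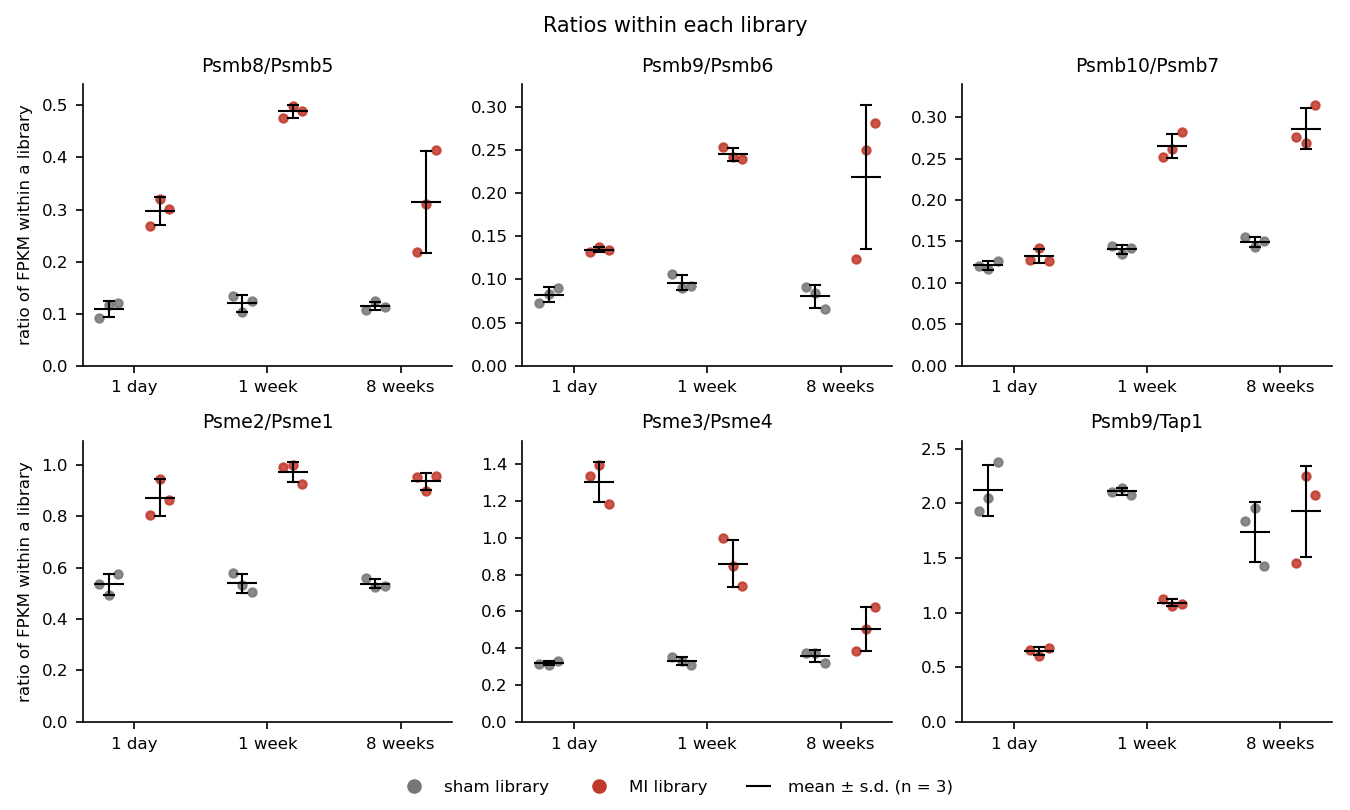
Ratios of FPKM within each library for 6 pairs of genes; points are libraries, grey for sham and red for MI, and bars are mean ± s.d. (n = 3). Psmb8/Psmb5 rises to 0.476 to 0.499 in the MI libraries at 1 week, and Psmb9/Tap1 falls to 0.604 to 0.678 at 1 day and overlaps the sham libraries at 8 weeks.

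Psmb8 and Psmb9 lie in the MHC class II region of chromosome 17, alternating with the genes of the peptide transporter TAP: Psmb9 at chr17:34182030-34187330, Tap1 at chr17:34187556-34197225, Psmb8 at chr17:34198195-34201454 and Tap2 at chr17:34204479-34216321 (GRCm38.p6, the assembly that mm10 names). The RefSeq promoter windows, 250 bases before to 50 after a start, of Psmb9 and Tap1 share 275 bases and run in opposite directions. Windows were found for 42 of the 50 genes. They were searched on both strands for the gamma-interferon site TTCNNNGAA, the interferon-stimulated core (GAAA, any pair of bases, GAAA), the core TGACNNNGC of the antioxidant element bound by NRF1 and NRF2, and the GC box GGGCGG, none of which overlapped another in the windows printed. 5 windows are shown because their genes carry the contrast between immunoproteasome and constitutive subunits; capitals mark every match, and the text is the gene's own strand. In order, these are Psmb8 (chr17:34197945-34198244, plus strand), Psmb9 (chr17:34187281-34187580, minus), Psmb5 (chr14:54617946-54618245, minus), Psme1 (chr14:55578244-55578543, plus) and the first of the Psme2 windows (chr14:55591052-55591351, minus).
Psmb8: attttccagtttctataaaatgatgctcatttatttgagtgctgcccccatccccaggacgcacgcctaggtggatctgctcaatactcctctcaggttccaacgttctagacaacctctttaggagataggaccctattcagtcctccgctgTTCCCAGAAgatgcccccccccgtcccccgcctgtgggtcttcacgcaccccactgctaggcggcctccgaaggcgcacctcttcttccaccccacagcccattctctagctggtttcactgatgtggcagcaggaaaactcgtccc
Psmb9: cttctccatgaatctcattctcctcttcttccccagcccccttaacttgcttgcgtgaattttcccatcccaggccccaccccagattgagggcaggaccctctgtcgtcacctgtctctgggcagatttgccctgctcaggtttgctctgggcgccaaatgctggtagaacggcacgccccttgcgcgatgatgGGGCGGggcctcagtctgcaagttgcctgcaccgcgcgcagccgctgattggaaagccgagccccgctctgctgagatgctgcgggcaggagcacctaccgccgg
Psmb5: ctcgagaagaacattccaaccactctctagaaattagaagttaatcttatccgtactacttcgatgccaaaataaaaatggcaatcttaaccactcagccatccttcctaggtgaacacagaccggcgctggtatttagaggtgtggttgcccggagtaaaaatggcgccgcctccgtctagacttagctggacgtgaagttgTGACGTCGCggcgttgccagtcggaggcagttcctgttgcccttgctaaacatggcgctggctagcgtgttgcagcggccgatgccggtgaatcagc
Psme1: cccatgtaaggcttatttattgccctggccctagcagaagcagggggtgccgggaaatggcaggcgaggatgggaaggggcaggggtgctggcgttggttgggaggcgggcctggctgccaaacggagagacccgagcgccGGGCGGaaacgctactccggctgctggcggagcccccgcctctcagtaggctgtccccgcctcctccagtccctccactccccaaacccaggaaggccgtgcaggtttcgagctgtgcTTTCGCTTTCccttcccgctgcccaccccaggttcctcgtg
Psme2: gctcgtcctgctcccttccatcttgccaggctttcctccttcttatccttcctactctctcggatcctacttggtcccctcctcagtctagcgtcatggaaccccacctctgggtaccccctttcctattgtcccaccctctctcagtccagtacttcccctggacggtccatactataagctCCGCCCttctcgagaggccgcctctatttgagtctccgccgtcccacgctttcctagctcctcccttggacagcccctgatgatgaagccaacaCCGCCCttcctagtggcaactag

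The gamma-interferon site is found in 8.30 percent of all 32851 mouse windows and in 3 of the 42 proteasome genes, Psmb8 (97 bases before the start), Psmd2 and Psmg1. The interferon-stimulated core is in 3.44 percent of all windows and in 5 proteasome genes, Psme1 (beginning 9 bases after the start), Psmb3, Psmd4, Psmd9 and Psmg4. The antioxidant core is in 12.4 percent of all windows and in 6 genes, Psmb5, Psmb6, Psmc6, Psmd9, Psmd12 and Psme4. A GC box is in 35.7 percent of all windows and in 23 of the 42 genes, Psmb9, Psme1 and Psme2 among them. These are matches of letters in a window and were not tested as sites.

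Psmb9 and Tap1, which start from opposite strands of the same stretch, differed in time. Tap1 held 2.62, 2.72 and 2.54 FPKM in sham and 10.7, 13.3 and 11.8 in MI libraries at 1 day, 3.07, 2.54 and 2.79 against 15.2, 15.5 and 14.7 at 1 week, and 3.01, 2.70 and 2.86 against 6.66, 7.59 and 9.30 at 8 weeks. Its log2 fold changes of 1.83, 2.09 and 1.19 stand beside 0.41, 1.34 and 1.41 for Psmb9. The ratio Psmb9/Tap1, chosen after the values were seen, was 2.12 ± 0.235, 2.11 ± 0.0304 and 1.74 ± 0.276 in sham libraries from early to late and 0.646 ± 0.0381, 1.09 ± 0.0326 and 1.93 ± 0.417 with MI, overlapping in the last pair (exact permutation p = 0.1, 0.1 and 0.5). Within this gene cluster Psmb8 and Tap1 were thus called at 1 day in all 4 scalings, Psmb9 was not, and Tap2 was not called there (0.27 ± 0.135, adjusted p = 0.0913, limma).

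The 2 genes of PA28 parted as well. Psme1 and Psme2 lie near each other on chromosome 14 (chr14:55578494-55581527, overlapping Emc9, and chr14:55587440-55591101) and encode the alpha and beta subunits of 1 ring. Psme1 fell at 1 day, from 77.1, 79.8 and 77.1 to 59.5, 62.7 and 65.9 FPKM (-0.31 ± 0.0916, adjusted p = 0.0064, limma). It was 81.4, 73.4 and 90.2 against 74.2, 69.5 and 73.4 FPKM at 1 week and 71.5, 76.1 and 75.8 against 59.6, 71.1 and 76.9 FPKM at 8 weeks, with overlapping groups and adjusted p of 0.0956 and 0.268. These are mRNA values, and the paper's mass spectrometry of pooled tissue lists the Psme1 protein as higher at 1 day of MI. Psme2 rose from 41.2, 39.5 and 44.4 to 47.8, 59.3 and 57.0 FPKM at 1 day (0.38 ± 0.101, adjusted p = 0.00316, limma). At 1 week it was 47.1, 39.2 and 45.7 against 73.4, 69.5 and 68.0 FPKM (0.67), and at 8 weeks 39.99, 39.9 and 40.1 against 56.8, 63.9 and 73.4 FPKM (0.67), calls that turned to -0.28 and -0.03 with median-ratio factors. No MI library of Psme2 lay in the sham range at any stage.

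The ratio Psme2/Psme1, also chosen after the values were seen, was 0.535 ± 0.0403, 0.540 ± 0.0367 and 0.538 ± 0.0187 in sham libraries at the 3 stages and 0.871 ± 0.0714, 0.972 ± 0.0401 and 0.936 ± 0.0328 with MI (exact permutation p = 0.1 each, the smallest possible). It differed little between the 3 MI libraries at 8 weeks, at 0.954, 0.898 and 0.956, unlike the Psmb8/Psmb5 ratio of the same libraries. Psme2b, a short gene on chromosome 11 (chr11:48945345-48946410) that nearly copies the Psme2 transcript and lies over 9930111J21Rik1, went from 1.28 ± 0.120 to 6.39 ± 1.25 FPKM at 1 week (1.69 ± 0.215, adjusted p = 1.81e-06). Reads of the pair may have been split between them, so both values are uncertain.

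Of the other activators, Psme4 showed the largest fall of any member. It encodes PA200, a nuclear cap linked to the breakdown of acetylated histones. It was 52.6, 56.1 and 52.2 FPKM in sham and 18.9, 19.9 and 22.9 in MI libraries at 1 day (-1.35 ± 0.108, adjusted p = 2.03e-08, limma), 45.2, 47.2 and 49.4 against 23.2, 26.5 and 30.1 at 1 week (-0.81 ± 0.108, adjusted p = 2.72e-06), and 41.3, 41.5 and 50.5 against 41.0, 37.0 and 33.0 at 8 weeks (-0.26 ± 0.108, adjusted p = 0.0388). The MI values fell below the sham range at every stage and moved back towards it with time. The late call was lost without sham replicate 3 (adjusted p = 0.196), MI replicate 2 (0.0709) or MI replicate 3 (0.159). The step from 1 week to 8 weeks was 0.56 ± 0.153 (adjusted p = 0.0083). Erlec1 and a predicted gene overlap Psme4, and the counting is not stated to use strand.

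Psme3, the gene of nuclear PA28γ, went the other way. It rose from 16.6, 17.3 and 17.2 to 25.1, 27.7 and 27.0 FPKM at 1 day (0.61 ± 0.0777, adjusted p = 3.31e-06, limma), in all 4 scalings. At 1 week it was 15.9, 15.7 and 15.4 against 23.2, 22.4 and 22.2 FPKM (0.50), which became -0.19 (quantile) and -0.42 (median-ratio) on other scalings. At 8 weeks the groups overlapped, with 15.5, 15.6 and 16.0 against 15.7, 18.8 and 20.5 FPKM, and the call (0.20, adjusted p = 0.0246) turned to -0.30 after quantile normalization and was lost without MI replicate 3 (0.130), MI replicate 2 (0.0731) or sham replicate 1 (0.0631) or 2 (0.0591). The ratio Psme3/Psme4, chosen after the values were seen, was 0.318 ± 0.0112, 0.332 ± 0.0199 and 0.356 ± 0.0329 in sham libraries from early to late and 1.30 ± 0.110, 0.860 ± 0.130 and 0.504 ± 0.119 with MI, with no overlap (exact permutation p = 0.1 each). PA28γ transcripts thus exceeded those of PA200 per length at 1 day of MI alone among the 6 group means.

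In the 19S lid, the cap's outer part, Psmd11 rose early. It encodes Rpn6, a lid subunit that clamps the 19S particle to the core. Its values were 27.8, 31.0 and 27.8 FPKM in sham and 62.6, 63.4 and 66.3 FPKM in MI libraries at 1 day, and all other groups lay between 23.2 and 30.0 FPKM. The log2 fold change of 1.13 ± 0.0738 (adjusted p = 2.34e-09, limma) was 2.22-fold in FPKM. At 1 week it was 25.4, 24.0 and 25.7 against 28.8, 28.1 and 30.0 FPKM and at 8 weeks 23.2, 23.4 and 23.6 against 24.1, 28.2 and 29.4 FPKM. These later calls (0.20 and 0.21) turned to -0.43 and -0.28 after quantile normalization, and were lost without sham replicate 2 (adjusted p = 0.0655) or MI replicate 3 (0.058) at 1 week and without MI replicate 2 (0.0634) or 3 (0.0776) at 8 weeks. The effect at 1 week was below that at 1 day by -0.93 ± 0.104 (adjusted p = 1.72e-06), called in all 4 scalings.

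Psmd8 encodes the lid subunit Rpn12. It was 40.1, 38.6 and 40.2 against 47.6, 56.7 and 53.0 FPKM at 1 day (0.39), 40.2, 36.5 and 40.04 against 83.6, 89.2 and 81.7 FPKM at 1 week (1.11 ± 0.0717, adjusted p = 1.54e-09, limma), and 33.9, 34.8 and 35.0 against 54.3, 58.3 and 58.0 FPKM at 8 weeks (0.70). Relative to all genes these were 0.30, 0.31 and 0.18, and with median-ratio factors 0.26, 0.15 and 0.00, the last pair not called, so that the order of the stages depended on the scaling. Psmd14, the deubiquitinase of the lid, rose from 23.1 ± 1.15 to 33.7 ± 1.73 FPKM at 1 day (0.52 ± 0.0702, adjusted p = 5.81e-06). Psmd12, the lid subunit Rpn5, was 39.1, 38.5 and 40.6 against 28.6, 30.8 and 30.7 FPKM at 1 week (-0.38 ± 0.0681, adjusted p = 6.56e-05), and 37.6 ± 0.147 against 37.5 ± 2.89 FPKM at 8 weeks.

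Of the 11 non-ATPase subunits of the 19S particle, 4, 9 and 9 rose and 0, 1 and 0 fell at the successive stages, beside backgrounds of 39.7, 72.8 and 70.4 percent of all genes higher and 30.6, 16.5 and 10.6 percent lower. After quantile normalization 3, 1 and 1 rose and 5, 9 and 5 fell, with backgrounds of 34.2, 41.3 and 30.9 percent higher and 42.0, 39.7 and 39.8 percent lower. The 6 ATPases that unfold substrates ranged from -0.42 for Psmc3 to 0.30 for Psmc4 at 1 day. Psmc3 fell from 79.1 ± 2.495 to 58.9 ± 1.47 FPKM at that stage (adjusted p = 7.63e-05, limma). At 1 week Psmc4 alone of the 6 was called, at 0.50 ± 0.0792, which turned to -0.09 after quantile normalization.

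In the 20S core, some alpha subunits rose and 1 fell at 1 day. The 7 alpha subunits spanned -0.17 to 0.54 early, -0.09 to 0.63 in the middle and 0.15 to 0.75 late. Psma5 had the highest value at 1 week, 31.1 ± 1.30 against 48.6 ± 2.56 FPKM (0.63, but -0.32 with median-ratio factors), and Psma6 the lowest, 77.1 ± 6.49 against 72.0 ± 2.229 FPKM (adjusted p = 0.224). Psma1 was called lower at 1 day (67.2 ± 3.26 against 59.9 ± 4.48 FPKM) and higher at 8 weeks (59.0 ± 0.744 against 65.6 ± 1.53 FPKM). The latter call turned to -0.29 after quantile normalization and was lost without most single libraries (adjusted p up to 0.114, limma). Psma3 rose from 47.6 ± 1.64 to 69.5 ± 3.10 FPKM at 1 day in all 4 scalings (0.54 ± 0.0701, adjusted p = 4.66e-06). The 4 beta subunits without an active site ranged from -0.08 to 0.07 at 1 day with 0 of 4 called. At 1 week Psmb1 was highest (71.1 ± 3.97 against 95.5 ± 3.52 FPKM, 0.42, but -0.06 after quantile normalization) and Psmb2 lowest (0.11, adjusted p = 0.104).

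The assembly chaperones split between early and late. Psmg1 and Psmg2 encode PAC1 and PAC2, which pair to build the alpha ring. Psmg2 fell from 15.5, 14.3 and 14.2 to 8.94, 10.3 and 10.5 FPKM at 1 day and from 13.18, 12.8 and 15.0 to 9.91, 11.2 and 11.4 FPKM at 1 week (-0.52 ± 0.0839 and -0.31 ± 0.0839, adjusted p = 3.79e-05 and 0.00263, limma). Psmg1 fell with it at 1 day, from 11.8, 11.7 and 12.8 to 7.46, 9.57 and 8.75 FPKM (-0.45 ± 0.0832, adjusted p = 0.000144). At 8 weeks Psmg2 and Psmg1 were 12.99 ± 0.809 and 11.2 ± 0.550 FPKM with sham and 13.4 ± 0.644 and 11.4 ± 0.372 FPKM with MI, which overlap. Psmg3, of the PAC3 and PAC4 pair, reached 0.67 ± 0.134 at 1 week and Psmg4 0.77 ± 0.144 at 8 weeks, the former turning to -0.19 after quantile normalization and the latter standing at 0.22 there, not called.

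Of the 19S chaperones, Psmd9 was lower at 1 day (4.10 ± 0.0484 against 3.25 ± 0.316 FPKM) and higher at 1 week (4.06 ± 0.290 against 6.23 ± 0.120 FPKM, 0.52), which turned to -0.36 after quantile normalization. Psmd5 measured 6.91, 6.75 and 6.58 FPKM in sham and 13.7, 14.3 and 13.7 FPKM in MI libraries at 1 week (0.94 ± 0.103, adjusted p = 3.15e-07, limma), or 0.15 relative to all genes, and was not called with median-ratio factors. Psmf1, the gene of the 20S inhibitor PI31, was 3.81, 3.83 and 3.82 against 3.09, 3.25 and 3.17 FPKM at 1 day and 3.27, 3.32 and 3.44 against 6.03, 5.48 and 6.15 FPKM at 1 week. Its effect went from -0.21 to 0.66, and the difference of 0.87 ± 0.126 (adjusted p = 1.89e-05) was called in all 4 scalings, although the rise itself turned to -0.21 after quantile normalization. In all, 5 members were called in opposite directions at 2 stages, Psma1, Psmb6, Psmb10, Psmd9 and Psmf1, each lower at 1 day and higher later on FPKM as deposited, which is 10.4 percent of members against 14.7 percent of all tested genes. Under other scalings a later value of each of the 5 turned negative. Psmc3ip was called at 8 weeks only, at 1.42 ± 0.438 against 2.35 ± 0.396 FPKM (0.47), which turned to -0.26 after quantile normalization and was lost without sham replicate 3 (adjusted p = 0.0683) or MI replicate 3 (0.052).

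**Figure D5:**
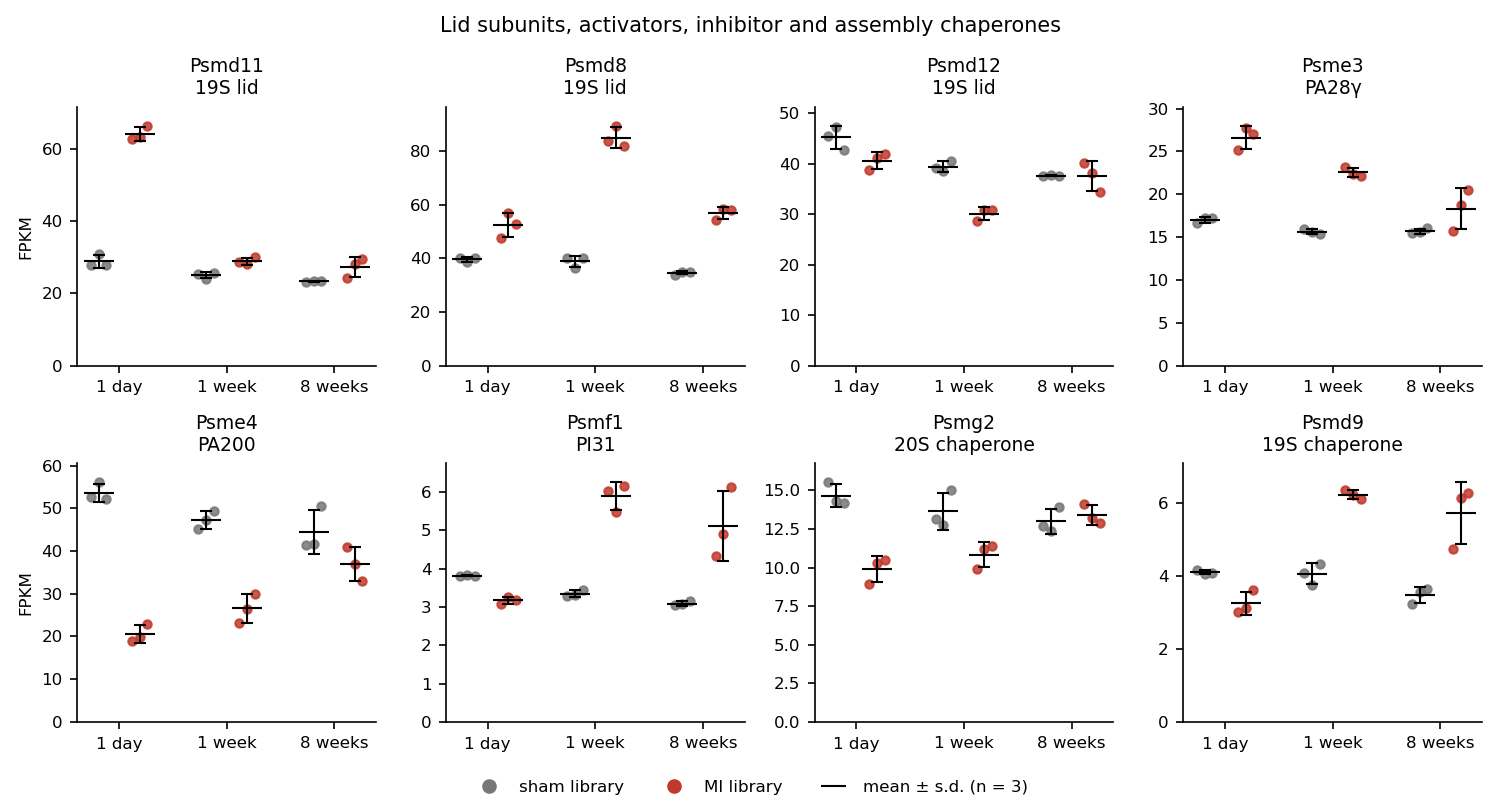
FPKM of lid subunits, activators, the inhibitor Psmf1 and assembly chaperones in each library; points are libraries, grey for sham and red for MI, and bars are mean ± s.d. (n = 3). Psmd11 stands at 62.6 to 66.3 FPKM in the MI libraries of 1 day and at 31.0 or below in all others, and Psme4 lies lowest at 1 day of MI.

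Between stages, 18 members had a higher MI effect at 1 week than at 1 day and 3 a lower one (backgrounds 60.0 and 11.8 percent of all genes), and 9 had a higher and 3 a lower effect at 8 weeks than at 1 week (17.1 and 29.9 percent). The first pair of counts became 3 and 12 with quantile normalization (backgrounds 31.7 and 29.7 percent) and the authors' values (31.6 and 29.5), and 1 and 35 with median-ratio factors (27.2 and 37.4). The second became 16 and 3 with both of the former (23.7 and 30.0, 23.5 and 30.1 percent), and 25 and 1 with the latter (26.0 and 23.1). In all 4 scalings, 1 member was higher (Psmf1; background 24.7 percent) and 3 lower (Psmd11, Psmd12 and Psmc6; 11.8 percent) at 1 week than at 1 day, and 9 higher (Psmg2, Psmc1, Psmb10, Psmb7, Psme4, Psmd12, Psmc6, Psmd7 and Psma6; 16.4 percent) and 1 lower (Psme2b; 23.1 percent) at 8 weeks than at 1 week. These 2 comparisons share the libraries of 1 week. Psmd12 and Psmc6 thus appear in both, with MI effects of -0.15, -0.38 and -0.01 and of 0.21, -0.10 and 0.26 at the 3 stages.

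Genes of antigen presentation and interferon signalling had higher median fold changes than the proteasome genes, whose medians were 0.02, 0.27 and 0.40. Of 12 genes of MHC class I presentation, the use to which immunoproteasome peptides are put, 6, 12 and 9 were higher and 0 lower at the 3 stages, with medians of 0.48, 1.70 and 0.77, where 39.7, 72.8 and 70.4 percent of all genes were higher. The shares of all genes called lower were 30.6, 16.5 and 10.6 percent. After quantile normalization 6, 8 and 6 of the 12 genes were higher and 2, 0 and 2 lower. Of all genes 34.2, 41.3 and 30.9 percent were then higher and 42.0, 39.7 and 39.8 percent lower. The largest rise was that of H2-D1, a class I heavy chain, at 1 week, from 71.98 to 419.6 FPKM (2.54 ± 0.218). Among those not called, the lowest value was that of Erap1 at 1 day (-0.12 ± 0.153, adjusted p = 0.518, limma). Nlrc5, the transactivator of class I genes and of Psmb9, was 0.438, 0.524 and 0.494 FPKM in sham and 2.11, 2.51 and 2.39 FPKM in MI libraries at 1 day (1.17 ± 0.104), with a log2 fold change of 1.15 at 1 week and 0.63 at 8 weeks, the last turning to -0.06 after quantile normalization.

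Of 17 tested genes of interferon signalling, 16, 15 and 14 rose and 1, 1 and 0 fell as the stages went by, their medians being 1.077, 1.54 and 1.04, beside the same 39.7, 72.8 and 70.4 percent. The shares of all genes called lower were 30.6, 16.5 and 10.6 percent. After quantile normalization 15, 15 and 12 of the 17 genes rose and 1, 2 and 3 fell. Of all genes 34.2, 41.3 and 30.9 percent were then higher and 42.0, 39.7 and 39.8 percent lower. Irf1, which binds the promoters of immunoproteasome genes, rose by 0.86, 1.45 and 1.00 at the 3 stages. The chemokine gene Cxcl10 rose most, from 0.651 to 20.4 FPKM at 1 day (3.70 ± 0.131), and Ifngr2, a chain of the gamma-interferon receptor, fell most, from 52.1 to 32.2 FPKM (-0.68 ± 0.0774).

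Of 29 tested proteasome partners (chaperones, shuttle factors, ubiquitin genes and regulators), 13, 21 and 19 rose and 8, 3 and 1 fell from early to late, shares near the 39.7, 72.8 and 70.4 percent of all genes that were higher. The shares of all genes called lower were 30.6, 16.5 and 10.6 percent. After quantile normalization 10, 9 and 3 partners rose and 13, 14 and 17 fell. Of all genes 34.2, 41.3 and 30.9 percent were then higher and 42.0, 39.7 and 39.8 percent lower. On that scaling the partners at 8 weeks were higher less often, and lower more often, than all genes. Pomp, the maturation factor that builds beta subunits into the core, was called higher at each stage (0.21, 0.19 and 0.45) but at no stage in all 4 scalings, with -0.31 at 1 week after quantile normalization. Nfe2l1, the transcription factor NRF1 that raises proteasome genes when activity falls short, went from 81.4 to 57.1 FPKM at 1 day and from 81.3 to 64.0 FPKM at 1 week (-0.51 ± 0.0643 and -0.34 ± 0.0643, adjusted p = 3.01e-06 and 9.65e-05, limma), in all 4 scalings. At 8 weeks Nfe2l1 stood the other way on FPKM as deposited, at 80.8, 88.1 and 86.1 in sham and 94.7, 96.2 and 99.7 in MI libraries. Ddi2, the protease that activates NRF1, rose from 4.25 to 12.03 FPKM at 1 day and 4.72 to 17.3 FPKM at 1 week (1.31 ± 0.222 and 1.67 ± 0.222). At 8 weeks the Ddi2 groups overlapped, with 4.93, 5.19 and 5.33 FPKM in sham and 3.48, 7.06 and 9.765 FPKM in MI libraries. The proteasome scaffold Ecpas (listed as AI314180) fell by 0.70, 0.42 and 0.41 at the 3 stages in all 4 scalings.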

How the data were processed

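Left ventricular mRNA of 18 libraries was measured by TruSeq sequencing. The authors deposited FPKM, which the submitters' processing notes tie to TopHat2 2.0.13, Bowtie2 2.2.3, Cufflinks 2.2.1 and mm10 without giving roles, and log2(FPKM + 1) values normalized to nearly 1 distribution, used only as an alternative. Deposited fold changes and p-values of the authors' comparisons were not used. Strand use in counting is not given in the sources used here. Absolute depth is unknown: steps in low FPKM give depths of 0.829 to 1.141 relative to the first library. One limma 3.58.1 fit (R 4.3.3; log2(FPKM + 1), trend, 6 groups; at least 1 FPKM in at least 3 of 18 libraries) tested MI against sham at each stage and, as interaction terms, the stages against each other, with Benjamini-Hochberg adjustment over 12858 genes and a threshold of 0.05. Ratios were tested by exact two-sided permutation (scipy 1.17.1). Named genes were the catalytic and PA28 genes, at each stage the 3 largest called rises and falls, members called in opposite directions, members under the filter, the highest and lowest of each subunit group, and up to 6 genes of each pathway list; Psma3, Psmd14, Psmc6, Tap2 and those listed by the 4 scalings were chosen after their values were seen. Members and lists were chosen with earlier results of these data known. Replicate numbers did not pair libraries: 2 of 9 correlations of deviations exceeded 0.1. Scripts were tested on simulated data. Promoter and position tables are RefSeq, GRCm38.p6. Small RNA libraries were not used.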

Additional observations from a re-analysis of the deposited data

Results flagged for a closer look

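MI effects on named proteasome genes that differed between stages, by limma's test of the difference itself (adjusted p over all genes) and in all 4 scalings, are given here as log2 values of the later minus the earlier stage; causes were not tested. At 1 week against 1 day, the difference was -0.93 for Psmd11, -0.23 for Psmd12 and 0.87 for Psmf1. That of Psmd12 had an adjusted p of 0.0436 and was lost without most single libraries (up to 0.114). At 8 weeks against 1 week, the difference was 0.38 for Psmb10, 0.38 for Psmb7, 0.38 for Psmd12, 0.56 for Psme4, 0.32 for Psma6, 0.35 for Psmg2 and -1.38 for Psme2b. That of Psmg2 was lost without sham replicate 3 (adjusted p = 0.0709) or MI replicate 1 (0.0712) of 1 week or sham replicate 1 (0.0531) or 2 (0.0610) of 8 weeks. That of Psme2b rests on counts it may share with Psme2.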

How the results depend on the processing

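The rises of members at 1 week and 8 weeks depended on the scaling. Stage by stage, members higher and lower were 8 and 21, 5 and 34, and 7 and 19 after quantile normalization, the same with the authors' normalized values except for 20 lower at 8 weeks, and 10 and 16, 3 and 41, and 2 and 28 with median-ratio factors. Stage differences up and down were 3 and 12 (1 week against 1 day) and 16 and 3 (8 weeks against 1 week) with both of the former, and 1 and 35, and 25 and 1 with median-ratio factors. The cause was not tested. The signs listed next cover only the 29 proteasome genes named by the rule given above. A gene missing from the list may have changed sign too. Fold changes of the named genes that changed sign did so under quantile normalization, median-ratio factors and the authors' normalized values. With quantile normalization and the authors' values alone, the sign turned at 1 day for Psmd5 -0.017 and -0.016. At 1 week they reached, in this order of scalings, Psmb1 -0.057, -0.54 and -0.057, Psmb10 -0.30, -0.54 and -0.31, Psmb6 -0.43, -0.83 and -0.44, Psmc4 -0.089, -0.44 and -0.091, Psmd11 -0.43, -0.73 and -0.44, Psmd9 -0.36, -0.29 and -0.36, Psme3 -0.19, -0.42 and -0.19, Psmf1 -0.21, -0.12 and -0.21, Psmg3 -0.19, -0.15 and -0.19, Psmg4 -0.38, -0.52 and -0.39. With median-ratio factors alone, the sign turned at 1 week for Psma5 -0.32, Psme2 -0.28. At 8 weeks they reached, in this order of scalings, Psma1 -0.29, -0.55 and -0.29, Psma6 -0.18, -0.48 and -0.19, Psmb2 -0.31, -0.56 and -0.32, Psmb5 -0.35, -0.62 and -0.36, Psmb6 -0.22, -0.50 and -0.23, Psmd11 -0.28, -0.48 and -0.29, Psmd9 -0.084, -0.0053 and -0.084, Psme3 -0.30, -0.47 and -0.31, Psmf1 -0.10, -0.0027 and -0.10, Psmg3 -0.15, -0.11 and -0.15. With median-ratio factors alone, the sign turned at 8 weeks for Psmb1 -0.20, Psmc4 -0.22, Psmd5 -0.023, Psme2 -0.028. With quantile normalization and the authors' values alone, the sign turned at 8 weeks for Psmc3ip -0.26 and -0.25. Ratios kept their direction: under the authors' normalized values Psmb8/Psmb5 was 1.86 at 1 week, Psmb9/Psmb6 0.60 at 1 day and 1.03 at 1 week, and Psmb10/Psmb7 0.69 at 1 week and 0.82 at 8 weeks on the log2 scale, and Psmb9/Psmb6 was 1.21 at 1 week with 1 FPKM added before division. The immunoproteasome minus constitutive value at 1 week was 0.84 after quantile normalization and 0.87 with the authors' values. Fitting each stage alone left 0 members lower at 8 weeks.

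Leaving out 1 library at a time gave 11 to 17, 26 to 31 and 33 to 38 members higher and 7 to 12, 4 to 6 and 0 to 2 lower at the 3 stages, 16 to 21 up and 2 to 3 down for 1 week against 1 day, and 6 to 11 up and 2 to 5 down for 8 weeks against 1 week. The 7 lower came without MI replicate 1 of 1 day, the 0 lower without sham replicate 3, MI replicate 2 or MI replicate 3 of 8 weeks, the 2 lower without MI replicate 1 of 8 weeks, and the 5 down without MI replicate 3 of 8 weeks. Of 72 called results for the named proteasome genes, 17 lost the call without some library. Calls of the other members are not counted here. Log2 ratios ranged over 1.32 to 1.52, 1.92 to 2.11 and 1.19 to 1.65 for Psmb8/Psmb5, 0.63 to 0.79, 1.31 to 1.43 and 1.15 to 1.74 for Psmb9/Psmb6, and 0.07 to 0.16, 0.87 to 0.95 and 0.86 to 0.98 for Psmb10/Psmb7. The immunoproteasome minus constitutive difference ranged over 0.49 to 0.58, 0.91 to 1.00 and 0.62 to 0.96.

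Replicate numbers did not pair the libraries (correlations of deviations from -0.0919 to 0.29). With the replicate block 14, 29 and 36 members were higher and 11, 4 and 1 lower at the 3 stages. The block ended 4 calls: Psmb9 at 1 day (adjusted p = 0.0552), Psma1 (0.0618) and Psmb2 (0.0587) at 8 weeks, and the Psmd12 difference of 1 week against 1 day (0.0562), which limma gave in that fit. A pseudocount of 0.1, no filter on low values, a mean of at least 5 FPKM and a fit with no intensity trend left every count within 1.5 times its value. They ended single calls, as limma's adjusted p shows: Psma1 and Psmb2 at 8 weeks with a pseudocount of 0.1 (0.0507 and 0.0510) or no trend (0.0546 and 0.0555), Psmb9, Psmd5 and Psmf1 at 1 day with no filter (0.0580, 0.0536 and 0.0539), and Psmd5 at 1 day (0.0505) and the Psmd12 difference of 1 week against 1 day (0.0531) with no trend. Fitting each stage alone ended Psma1 at 1 day (0.0763) and, at 8 weeks, Psma1, Psma6, Psmb2, Psmb6, Psmd11, Psme3 and Psme4 (0.0550 to 0.177). Absolute depth is unknown, so no floor can be set for members at or near 0.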
